A study of Mus musculus with 33 samples.

Results

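Embryoid bodies given activin A at 100 ng/mL (AA100) were compared with untreated embryoid bodies in serum-free medium (SFM) by DP-seq, a sequencing method in which a designed set of heptamer primers turns cDNA into the amplicons that are sequenced. The comparison rests on 3 of the 33 libraries of the series: 1 AA100 library from the dose set, SFM replicate 1 as the reference, and SFM replicate 2 as a check of that reference. All 3 came from differentiating mouse embryonic stem cells kept without serum and dispersed on day 2, with the agent added for the next 2 days and RNA taken on day 4. The labels name no cell line, genotype or passage. SFM replicate 1 had no agent, and SFM replicate 2 had no agent and is labelled as carrying spiked-in yeast transcripts, which the other 2 libraries are not. The rest of the dose set is used for context only: 1 library with the receptor inhibitor SB-431542 (SB), 1 with activin at 3 ng/mL (AA3), and 2 technical replicates at 15 ng/mL (AA15). An embryoid body is a mixed aggregate, so fewer cells of a type and less RNA per cell cannot be told apart here.

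Activin A is a TGF-β family ligand. It binds the type I and type II receptors that Nodal also uses, without needing the Nodal co-receptors of the EGF-CFC family, and the receptors phosphorylate SMAD2 and SMAD3, which enter the nucleus with SMAD4 and bind DNA beside partners such as FOXH1. In the mouse embryo this pathway is needed for the primitive streak and for the endoderm and mesoderm that leave it, and it holds back neural fate in the epiblast. Several of its targets, such as the Lefty genes and Cer1, encode secreted inhibitors of the pathway itself.

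AA100 held 15450185 counts over 14499 genes, against 15395435 counts over 14572 genes in SFM replicate 1 and 13053122 counts over 13080 genes in SFM replicate 2. The SFM libraries stood apart from each other. Their gene ratios had a SD of 1.57 on the log2 scale over the 12076 genes tested, against 0.763 between AA100 and SFM replicate 1 and 0.380 between the AA15 technical replicates (the plot of ratios between pairs of libraries). The 10 most abundant genes took 8.07% of counts in AA100, against 8.56% in SFM replicate 1 and 14.4% in SFM replicate 2, and ribosomal protein genes took 8.36% in AA100, against 8.46% and 5.07%. What sets SFM replicate 2 apart was not tested.

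**Figure D1:**
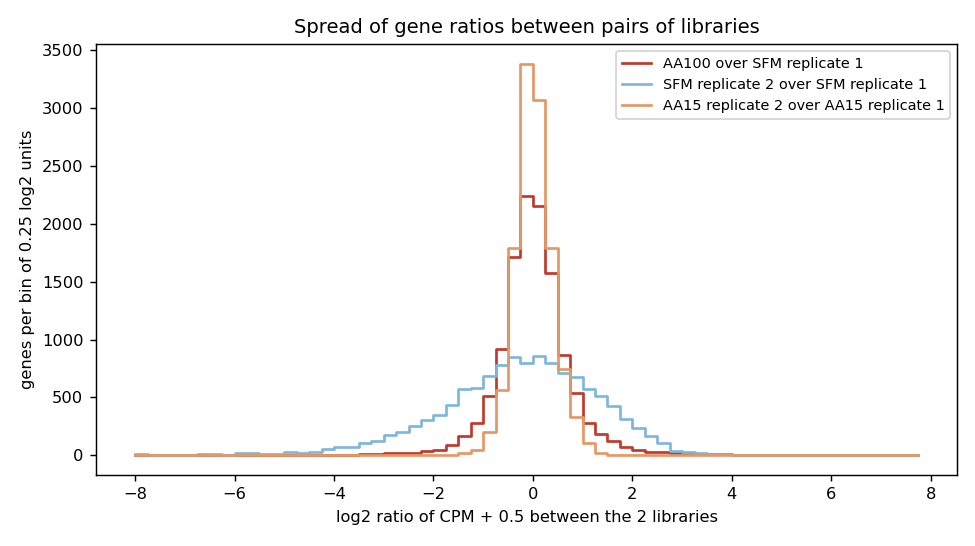
Number of genes (y axis, per bin of 0.25 log2 units) by log2 ratio of scaled CPM + 0.5 (x axis) for AA100 over SFM replicate 1, SFM replicate 2 over SFM replicate 1, and AA15 replicate 2 over AA15 replicate 1, over the 12076 genes tested. The ratios between the SFM libraries spread wider (SD 1.57) than those of AA100 over SFM replicate 1 (SD 0.763), and the AA15 pair is the narrowest (SD 0.380).

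Against SFM replicate 1, 867 of 12076 genes tested rose (7.18%) and 693 fell (5.74%) in AA100, at an adjusted p under 0.05 by edgeR's quasi-likelihood test with Benjamini-Hochberg adjustment. There is 1 library on each side, so the spread behind this test comes from the AA15 technical replicates alone, and a p-value sets a difference between samples against technical spread. The calls depend on the reference. With both SFM libraries as controls 0 genes passed (541 at an unadjusted p under 0.05, and 35 higher and 71 lower by DESeq2), and with SFM replicate 2 alone 3930 genes were higher and 3226 lower. With library totals in place of trimmed-mean (TMM) scaling, 44.5% of calls were higher, against 55.6%, and the median log2 change of all genes moved by −0.11. Each call is therefore set beside SFM replicate 2, and a call is said to hold where AA100 also differs at least 2-fold the same way from that library, on scaled CPM + 0.5. Of the 867 genes that rose 532 held (4.41% of genes tested), and of the 693 that fell 374 held (3.1%). Another 61 of the higher and 86 of the lower calls lay at least 2-fold the opposite way against SFM replicate 2. Of all 12076 genes tested, called or not, 29.98% lay at least 2-fold above SFM replicate 2 and 21.25% at least 2-fold below it. The shares of calls that held, 61.4% of the higher and 54.0% of the lower, are to be read beside these. Counts of calls in each gene list below are to be read beside the 7.18% of all genes tested that rose and the 5.74% that fell. Levels below are counts scaled to the TMM-adjusted library size (CPM), log2 changes are AA100 over SFM replicate 1 with their standard error, and fold values come with 95% intervals for counting error only.

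The 5 marker genes given for the comparison are Sox17 and Cer1 for endoderm, Hand1 and Kdr for mesoderm and Pax6 for neural cells. The 4 markers of endoderm and mesoderm rose (7.18% of all genes tested did) and Pax6 fell (5.74% did), and all 5 calls held. Sox17, an endoderm transcription factor gene, had 127 counts (8.03 CPM) in AA100, against 11 counts (0.644 CPM) in SFM replicate 1 and 1 count (0.0964 CPM) in SFM replicate 2. This was 12.5-fold above SFM replicate 1 (6.73 to 25.6; log2 change 3.62 ± 0.55, edgeR adjusted p = 2.4e-08). Cer1, whose product is a secreted inhibitor of Nodal, BMP and Wnt ligands, was at 719 CPM in AA100, against 30.6 CPM and 47.3 CPM in the SFM libraries, or 23.5-fold above replicate 1 (21.5 to 25.7; log2 change 4.55 ± 0.33, edgeR adjusted p = 7.4e-27). In both genes the AA100 library lay far above the SFM libraries, and Sox17 rested on few counts.

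Hand1, a transcription factor gene of extraembryonic and lateral mesoderm, had 131 counts in AA100, against 9 counts in SFM replicate 1 and 8 counts in SFM replicate 2 (log2 change 3.95 ± 0.57, edgeR adjusted p = 4.4e-09). Kdr, which encodes the VEGF receptor of early mesoderm and endothelium, was at 96.8 CPM in AA100, against 6.15 CPM and 9.93 CPM in the SFM libraries, 15.7-fold above replicate 1 (12.9 to 19.4; log2 change 3.97 ± 0.35, edgeR adjusted p = 2.5e-20). Pax6, a transcription factor gene of forebrain and eye, had 25 counts (1.58 CPM) in AA100, against 2841 counts (166 CPM) in SFM replicate 1 and 4824 counts (465 CPM) in SFM replicate 2. It was 105-fold below replicate 1 (71.2 to 163; edgeR adjusted p = 3.4e-35), and 294-fold below replicate 2 (199 to 455). For these 3 genes too the SFM libraries lay on the same side of AA100.

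**Figure D2:**
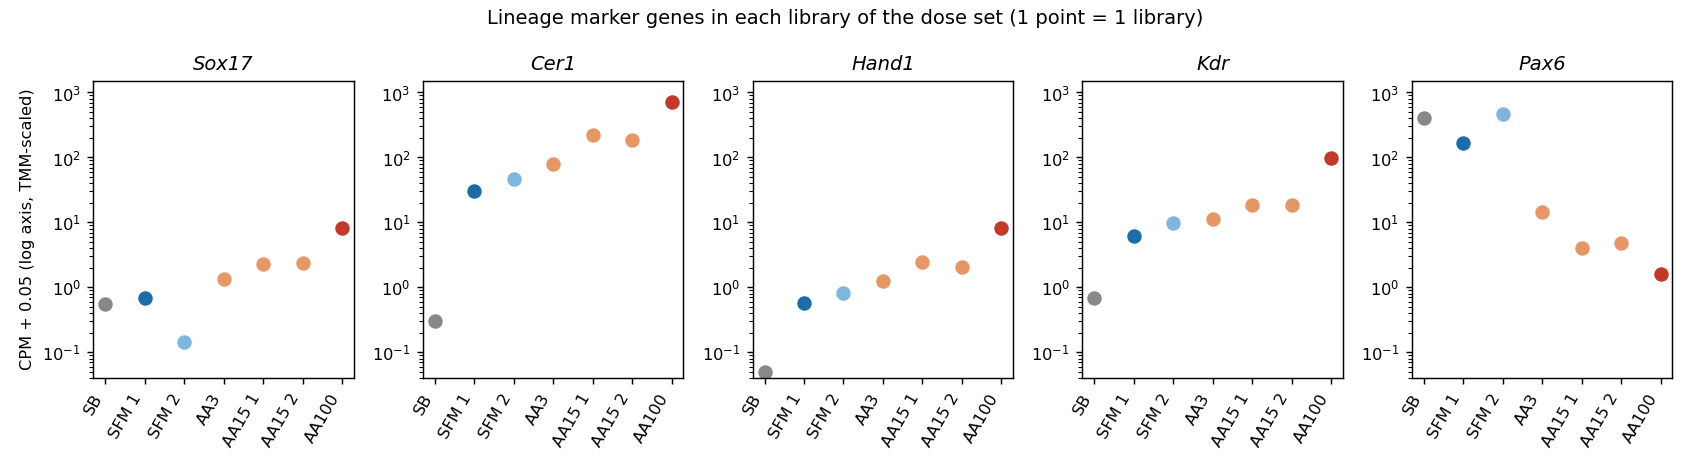
Scaled CPM + 0.05 on a log axis (y) in each library of the dose set (x, from SB and SFM to AA100; 1 point is 1 library) for Sox17, Cer1, Hand1, Kdr and Pax6. Cer1 stands at 719 CPM in AA100 and at 30.6 and 47.3 CPM in the SFM libraries, and Pax6 at 1.58 CPM in AA100 and at 166 and 465 CPM.

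The promoter windows of Cer1 and Tdgf1, induced members of the endoderm and pathway groups, of Evx1, an induced streak gene, and of Pax6 are shown because the results below turn on these groups. Each runs from 250 bases before to 50 bases after the transcription start, taken from RefSeq on GRCm38.p6 and written 5′ to 3′ on the strand of the gene. Cer1 lies at chr4:82885102-82885401 (minus strand), Tdgf1 at chr9:110946109-110946408 (minus strand), Evx1 at chr6:52313248-52313547 (plus strand) and Pax6 at chr2:105668646-105668945 (plus strand, 1 of 2 windows of that gene). Capitals mark the SMAD-type motif CAGAC and the FOXH1-type motif AATNNACA on either strand; the motifs share no base in these windows.
Cer1: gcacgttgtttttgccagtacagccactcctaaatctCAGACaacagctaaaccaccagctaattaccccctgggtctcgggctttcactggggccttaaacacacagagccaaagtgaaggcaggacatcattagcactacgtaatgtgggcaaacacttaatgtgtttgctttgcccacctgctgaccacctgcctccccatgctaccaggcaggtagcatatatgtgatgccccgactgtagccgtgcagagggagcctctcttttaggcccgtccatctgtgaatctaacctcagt
Tdgf1: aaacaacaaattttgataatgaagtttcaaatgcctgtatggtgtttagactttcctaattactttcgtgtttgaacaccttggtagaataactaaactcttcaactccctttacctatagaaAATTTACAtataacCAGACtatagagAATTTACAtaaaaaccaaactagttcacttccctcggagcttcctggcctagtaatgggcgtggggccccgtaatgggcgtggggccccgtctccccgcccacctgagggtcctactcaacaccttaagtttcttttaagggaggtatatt
Evx1: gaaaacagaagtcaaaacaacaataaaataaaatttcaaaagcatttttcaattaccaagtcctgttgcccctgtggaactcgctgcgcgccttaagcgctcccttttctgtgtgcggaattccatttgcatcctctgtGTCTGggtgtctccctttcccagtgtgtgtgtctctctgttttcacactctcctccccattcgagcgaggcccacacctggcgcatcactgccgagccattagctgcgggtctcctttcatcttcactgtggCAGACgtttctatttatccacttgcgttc
Pax6: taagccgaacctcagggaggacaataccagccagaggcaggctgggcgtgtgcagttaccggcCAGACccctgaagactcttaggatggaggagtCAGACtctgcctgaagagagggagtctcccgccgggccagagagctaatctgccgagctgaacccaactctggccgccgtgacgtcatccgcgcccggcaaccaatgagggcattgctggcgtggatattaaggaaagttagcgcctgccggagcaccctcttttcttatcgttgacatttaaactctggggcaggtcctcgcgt
The CAGAC motif occurred 1 time each in the Cer1 and Tdgf1 windows and 2 times each in the Evx1 and Pax6 windows, and AATNNACA occurred 2 times in the Tdgf1 window and in none of the other 3. Over all 32851 windows given by RefSeq, 49.6% held CAGAC and 12.2% held AATNNACA. Of the 7 activin target and feedback genes that rose 2 had windows, and 1 of these 2 windows held CAGAC and 1 held AATNNACA. Of the 12 streak genes that rose 9 had windows, and of their 11 windows 7 held CAGAC (63.6%) and 0 held AATNNACA. Of the 14 endoderm genes that rose 9 had windows, and of their 11 windows 5 held CAGAC (45.5%) and 0 held AATNNACA. Of the 13 forebrain genes that fell 9 had windows, and of their 11 windows 5 held CAGAC (45.5%) and 2 held AATNNACA (18.2%). These numbers of windows are small, and no difference from the share over all windows was tested. A match describes the letters only and shows no bound site.

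The pathway's own feedback genes formed the first group. Of 18 known targets of activin and Nodal signalling 15 could be tested, 7 rose and all 7 held, and 0 fell (7.18% and 5.74% over all genes tested). The median log2 change was 1.01, against −0.01 over all genes tested. This middle value is that of Bambi, which did not pass and lay the opposite way against SFM replicate 2. On CPM + 0.5 the median of the list against SFM replicate 2 was 1.78. Nodal, the endogenous ligand of the pathway, had 158 counts (9.99 CPM) in AA100, against 14 counts (0.820 CPM) in SFM replicate 1 and 2 counts (0.193 CPM) in SFM replicate 2 (log2 change 3.59 ± 0.49, edgeR adjusted p = 2.5e-09). Tdgf1, the EGF-CFC co-receptor gene also called Cripto, was the most abundant, at 1959.8 CPM in AA100, against 206 CPM and 222 CPM in the SFM libraries, 9.52-fold above replicate 1 (9.20 to 9.86) and 8.81-fold above replicate 2 (8.45 to 9.20). Its log2 change was 3.25 ± 0.31 (edgeR adjusted p = 4.4e-18), and the ratios to the SFM libraries lay close to each other.

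The secreted inhibitors rose as well. Lefty1, a Nodal antagonist gene, had 819 counts (51.8 CPM) in AA100, against 40 counts (2.34 CPM) and 5 counts (0.482 CPM) in the SFM libraries (log2 change 4.46 ± 0.38, edgeR adjusted p = 4.0e-21). Lefty2, its neighbour in function, had 1737 counts in AA100, against 80 counts in SFM replicate 1 and 199 counts in SFM replicate 2, so that the excess was 23.4-fold over replicate 1 and 5.72-fold over replicate 2. Both genes were at 0 counts in SB. Fst, whose product follistatin binds activin itself, was at 12.8 CPM in AA100, against 1.81 CPM and 1.54 CPM (log2 change 2.81 ± 0.42, edgeR adjusted p = 1.2e-08). Lefty1 and Lefty2 are closely related in sequence, and reads shared between them may be missing from unique counts.

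Of the inhibitors that act inside the cell or at the receptor, 2 rose and the others did not pass or could not be tested. Pmepa1, whose product sequesters receptor-activated SMADs, had 162 counts in AA100, against 12 counts and 3 counts in the SFM libraries (log2 change 3.85 ± 0.50, edgeR adjusted p = 8.9e-11). Smad7, the inhibitory SMAD gene, was at 18.5 CPM in AA100, against 5.62 CPM and 2.12 CPM (log2 change 1.71 ± 0.35, edgeR adjusted p = 6.1e-05). The other 8 tested members did not pass. Among them the corepressor genes Ski (log2 change 0.40), Tgif1 (−0.37) and Tgif2 (0.73) and the pseudoreceptor gene Bambi (1.01) had the opposite sign against SFM replicate 2 alone. Skil, Ldlrad4 and Smurf1 had too few counts for a test.

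Among 17 receptor, SMAD and other component genes 12 were tested, 2 rose and 1 fell. Over all genes tested 7.18% rose and 5.74% fell, so these few calls are no result about the list. Cfc1, the second EGF-CFC co-receptor gene, had 478 counts in AA100, against 66 counts in SFM replicate 1 and 1 count in SFM replicate 2 (log2 change 2.96 ± 0.37, edgeR adjusted p = 3.2e-11). Foxh1, which encodes the DNA-binding partner of SMAD2 named above, was at 17.6 CPM in AA100, against 5.86 CPM and 2.51 CPM (edgeR adjusted p = 0.0002). Smad2 was at 109 CPM in AA100, against 219 CPM and 160 CPM. Its fall of 1.01 on the log2 scale passed (edgeR adjusted p = 0.021) but did not hold, and the AA15 technical replicates themselves read 88.3 CPM and 168 CPM for this gene.

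Primitive streak genes rose together. Of 18 genes 16 were tested, 12 rose, all 12 held and 0 fell, where 7.18% of all genes tested rose and 5.74% fell. The median log2 change was 3.07 against SFM replicate 1 and 2.47 against replicate 2. Summed over the list, AA100 had 1428 CPM, against 234 CPM and 83.4 CPM in the SFM libraries. The brachyury gene T, which marks the streak and its mesoderm, had 11149 counts (705 CPM) in AA100, against 1044 counts (61.1 CPM) in SFM replicate 1 and 10 counts (0.964 CPM) in SFM replicate 2 (log2 change 3.52 ± 0.32, edgeR adjusted p = 1.6e-16). The SFM libraries thus differed strongly in T, and AA100 lay above both. T, Gsc, Evx1 and Lhx1 lie outside the rule for named genes and were chosen after their values were seen.

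Mixl1, a homeobox gene of the streak, had 2214 counts in AA100, against 83 counts and 35 counts in the SFM libraries, 28.8-fold (23.1 to 36.3) above replicate 1 and 41.5-fold (29.7 to 59.7) above replicate 2. Its log2 change was 4.84 ± 0.35 (edgeR adjusted p = 7.4e-27). Gsc, which marks the anterior streak and organizer, had 386 counts in AA100, against 29 counts and 1 count, and Lhx1, a LIM homeobox gene of the anterior streak, had 2029 counts, against 139 counts and 75 counts. Evx1, a homeobox gene of the proximal and posterior streak, had 2448 counts in AA100, against 198 counts and 217 counts (log2 change 3.73 ± 0.32, edgeR adjusted p = 5.1e-20). Genes known for the anterior and for the posterior streak were thus both high in the same library.

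Wnt ligand genes of the streak rose too, and of Wnt3 and Wnt8a only Wnt3 was among the 15 largest rises that held. Wnt3, needed for streak formation, had 202 counts in AA100, against 5 counts and 24 counts in the SFM libraries (log2 change 5.41 ± 0.56, edgeR adjusted p = 1.5e-15), and Wnt8a had 152 counts, against 10 counts and 6 counts (log2 change 4.01 ± 0.51, edgeR adjusted p = 5.0e-11). Mesp1, a transcription factor gene of cardiac and head mesoderm, had 116 counts in AA100, against 4 counts and 9 counts (log2 change 4.92 ± 0.68, edgeR adjusted p = 1.8e-09). All 3 genes rested on SFM counts below 30. Eomes, a T-box gene of the streak, reached only 17 counts in AA100, against 5 counts and 2 counts, and did not pass (edgeR adjusted p = 0.20); it was named after its value was seen.

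Definitive and anterior endoderm genes followed. Of 20 genes 19 were tested, 14 rose, 12 of them held, and 1 fell (7.18% and 5.74% over all genes tested). The median log2 change was 2.28. The forkhead genes that open endoderm chromatin were among them. Foxa2 had 614 counts in AA100, against 108 counts and 12 counts in the SFM libraries (log2 change 2.61 ± 0.34, edgeR adjusted p = 1.0e-10), and Foxa1 had 190 counts, against 23 counts and 44 counts (log2 change 3.15 ± 0.46, edgeR adjusted p = 9.6e-09). Prdm1, which encodes a transcriptional repressor of endoderm and germ cells, was at 43.7 CPM in AA100, against 6.50 CPM and 2.99 CPM (log2 change 2.74 ± 0.34, edgeR adjusted p = 1.8e-11). Foxa3 and Trh rose against replicate 1 but lay under 2-fold above replicate 2, at 22 CPM against 21.7 CPM and at 785 CPM against 415 CPM. The member that fell was Sfrp1, a secreted Wnt antagonist gene also used in the neural plate, at 101 CPM in AA100, against 215 CPM and 644 CPM (log2 change −1.09 ± 0.28, edgeR adjusted p = 0.0026).

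Endoderm of extraembryonic origin shares some of these genes. Of 20 genes 15 were tested, 0 rose, 5 fell and 2 of these held (7.18% of all genes tested rose and 5.74% fell). The summed level was 878 CPM in AA100, against 2048 CPM and 2615 CPM. Apom, Rbp4 and Pth1r were at 0 counts in AA100, where SFM replicate 1 had 4 members of the list at 0 counts. Afp, the classic visceral endoderm gene, had 3 counts in AA100, against 11 and 0 counts in the SFM libraries. Lrp2, an endocytic receptor gene of visceral endoderm that neural tissue also uses, was at 156 CPM in AA100, against 801 CPM and 1952 CPM (log2 change −2.36 ± 0.29, edgeR adjusted p = 1.8e-11). Lrp2 carried much of the list's sum, and without it the list summed to 722 CPM in AA100, against 1247 CPM and 663 CPM, so the AA100 sum then lay between those of the SFM libraries. Lama1, a basement membrane gene, was at 15.7 CPM, against 53.6 CPM and 69.7 CPM (log2 change −1.78 ± 0.31, edgeR adjusted p = 1.5e-06). Of 11 trophoblast genes 7 were tested and 1 rose, Krt7, with 52 counts in AA100, against 17 counts and 0 counts. Elf5, Tfap2c and Tpbpa were at 0 counts in AA100, and 4 members of that list were at 0 counts in SFM replicate 1. Zeros that the control also has are no loss under activin.

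Mesoderm genes were split. In the flank and heart mesoderm list 10 of 16 were tested, 4 rose and 3 of these held, among them Hand1 and Kdr above. Another 1 member fell, and its fall did not hold. Over all genes tested 7.18% rose and 5.74% fell. Nkx2-5, Msx1, Pdgfra and Tbx3 were at 0 counts in AA100 and in both SFM libraries, and Mef2c was at 0 counts in AA100, against 7 counts and 0 counts. Flt1, a second VEGF receptor gene, was at 84.6 CPM in AA100, against 7.09 CPM and 4.72 CPM in the SFM libraries, 11.9-fold above replicate 1 (9.91 to 14.5; edgeR adjusted p = 4.4e-18). Blood and endothelial genes other than Flt1 had few counts: 10 of the 16 in the list had too few counts for a test, and Lmo2, Gata2, Runx1, Pecam1 and Eng were among the 8 at 0 counts in AA100. In SFM replicate 1, 6 members of the list were at 0 counts. In the paraxial list of 16 genes, 9 were tested, 3 rose and 3 fell. Foxc1 had 163 counts in AA100, against 23 counts and 9 counts (log2 change 2.92 ± 0.46, edgeR adjusted p = 1.0e-07). Its step to AA100 from AA3 was negative in 3 other sets of libraries, given below. Its relative Foxc2 had 174 counts in AA100, against 23 counts in SFM replicate 1 and 269 counts in SFM replicate 2, so its direction depends on the SFM library. Pax3, of dorsal neural tube and paraxial mesoderm, had 3 counts in AA100, against 93 counts and 57 counts (log2 change −4.79 ± 0.72, edgeR adjusted p = 2.2e-08).

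The forebrain and eye field list had the lowest median log2 change of the 39 lists. Of 20 genes 16 were tested, 0 rose and 13 fell, of which 12 held; the median log2 change was −5.02, or −3.41 with genes at 0 counts put at their bound. The list summed to 27.1 CPM in AA100, against 529 CPM in SFM replicate 1 and 1113 CPM in SFM replicate 2. Fezf1, a zinc finger gene of the forebrain, had 0 counts in AA100, against 162 counts and 189 counts. With a floor of 3 counts in the AA100 library it was at least 50-fold lower than in replicate 1 and at least 96.1-fold lower than in replicate 2 (edgeR adjusted p = 6.4e-16). Fezf2, its relative, had 3 counts in AA100, against 906 counts in SFM replicate 1 and 52 counts in SFM replicate 2, so that the SFM libraries themselves differed by an order of magnitude in this gene.

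Wnt8b, a Wnt ligand gene of the forebrain, had 5 counts (0.316 CPM) in AA100, against 942 counts (55.2 CPM) and 1385 counts (133 CPM) in the SFM libraries, 175-fold (74.5 to 539) below replicate 1. Its log2 change was −7.42 ± 0.49 (edgeR adjusted p = 7.4e-30). Lhx2, a LIM homeobox gene of the eye field and cortex, also had 5 counts in AA100, against 565 counts and 863 counts, 105-fold (44.6 to 324) below replicate 1 (edgeR adjusted p = 6.9e-24). Hesx1, a repressor gene of the anterior neural plate, had 2 counts in AA100, against 101 counts and 80 counts (log2 change −5.47 ± 0.72, edgeR adjusted p = 1.7e-10). Emx2, of the dorsal forebrain, kept 195 counts (12.3 CPM), against 2356 counts (138 CPM) and 3452 counts (333 CPM), and was picked after its value was seen as the member of this list with the most counts in AA100 among those that fell. Otx2, which both the anterior neural plate and the anterior endoderm use, was not a member of the falling group, at 783 CPM in AA100, against 799 CPM and 63.7 CPM (log2 change −0.03 ± 0.28, edgeR adjusted p = 0.96).

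**Figure D3:**
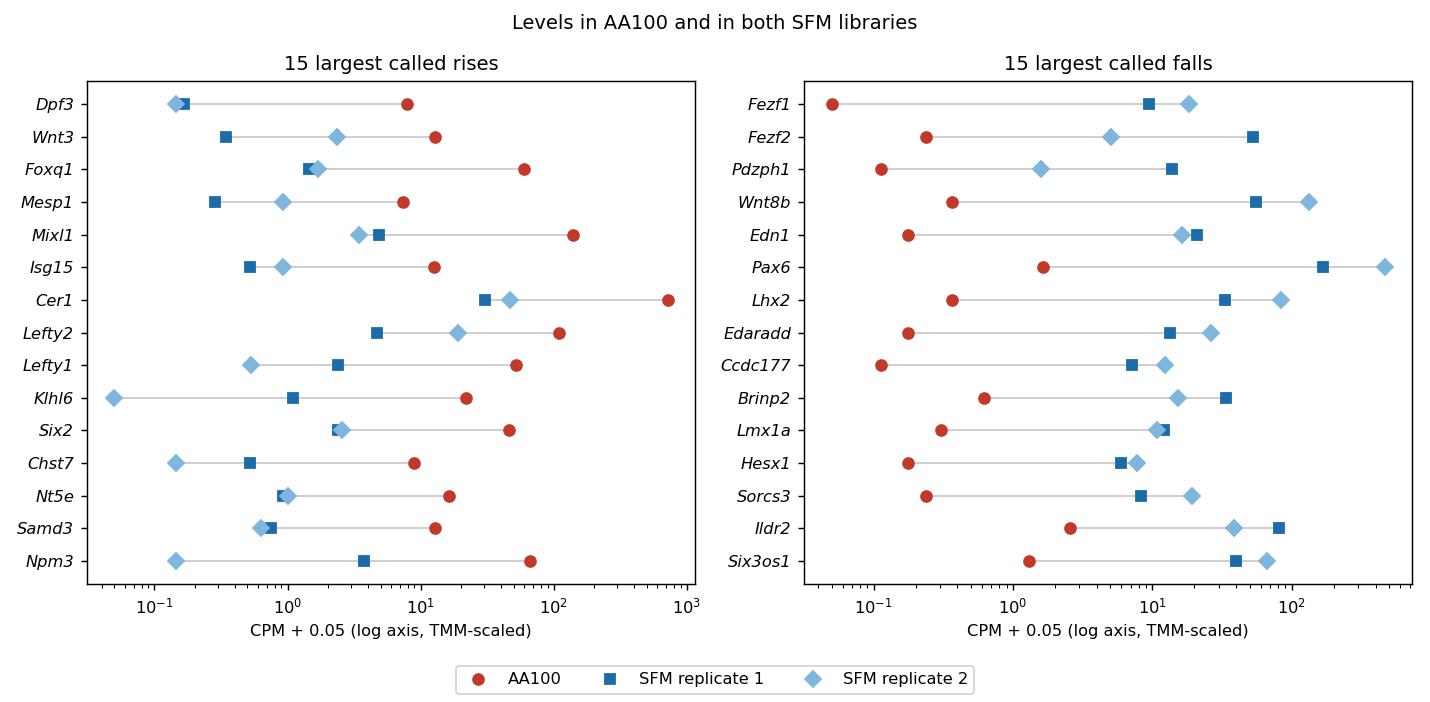
Scaled CPM + 0.05 on a log axis (x) in AA100 and in both SFM libraries for the 15 genes with the largest rise (left panel) and the 15 with the largest fall (right panel) among calls that held, with at least 100 counts in the higher library. Every gene has its AA100 point on one side of both SFM points, as the rule requires; Cer1 is at 719 CPM in AA100 and Pax6 at 1.58 CPM.

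The neural plate list was mixed. All 18 genes were tested, 9 fell and 7 of these held, and 3 rose and 2 of these held. Over all genes tested 5.74% fell and 7.18% rose. The list had a median log2 change of −1.53. The early neural genes Sox1, Sox2 and Sox3 fell, at 4.61, 9.67 and 4.87 CPM in AA100, against 30.5, 56.0 and 25.4 CPM in SFM replicate 1 and 20.1, 38.8 and 11.8 CPM in SFM replicate 2 (named after their values were seen). Ptn, the growth factor gene pleiotrophin, had 36 counts in AA100, against 952 counts and 239 counts (log2 change −4.61 ± 0.38, edgeR adjusted p = 4.9e-22). Hes5, a Notch effector gene of neural progenitors, had 2 counts in AA100, against 92 counts and 7 counts; this fall passed but did not hold. The level was 0.126 CPM in AA100, against 5.39 CPM and 0.675 CPM, 5.34-fold below replicate 2 (1.02 to 52.6), but the log2 difference from replicate 2 on CPM + 0.5 was −0.91, short of 2-fold.

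Some more posterior and later neural genes also fell. In the midbrain and hindbrain list 14 genes were tested and 5 fell, of which 3 held; Wnt1, of the midbrain and hindbrain boundary, had 1 count in AA100, against 78 counts and 14 counts. In the proneural and neuron list 12 genes were tested and 6 fell, of which 3 held. Neurog2, which drives neuronal differentiation, was at 0 counts in AA100, against 74 counts and 59 counts, at least 22.9-fold below replicate 1 (edgeR adjusted p = 1.1e-09). Tubb3, the neuronal tubulin gene, was at 17.5 CPM in AA100, against 120 CPM and 506 CPM (log2 change −2.78 ± 0.31, edgeR adjusted p = 4.4e-14). Of 5 neural crest genes tested 1 fell, Sox9, with 28 counts in AA100, against 80 counts and 161 counts. Sox10, Tfap2a and Tfap2b had too few counts for a test and were at 0 counts in AA100, and 1 member of the list was at 0 counts in SFM replicate 1.

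**Figure D4:**
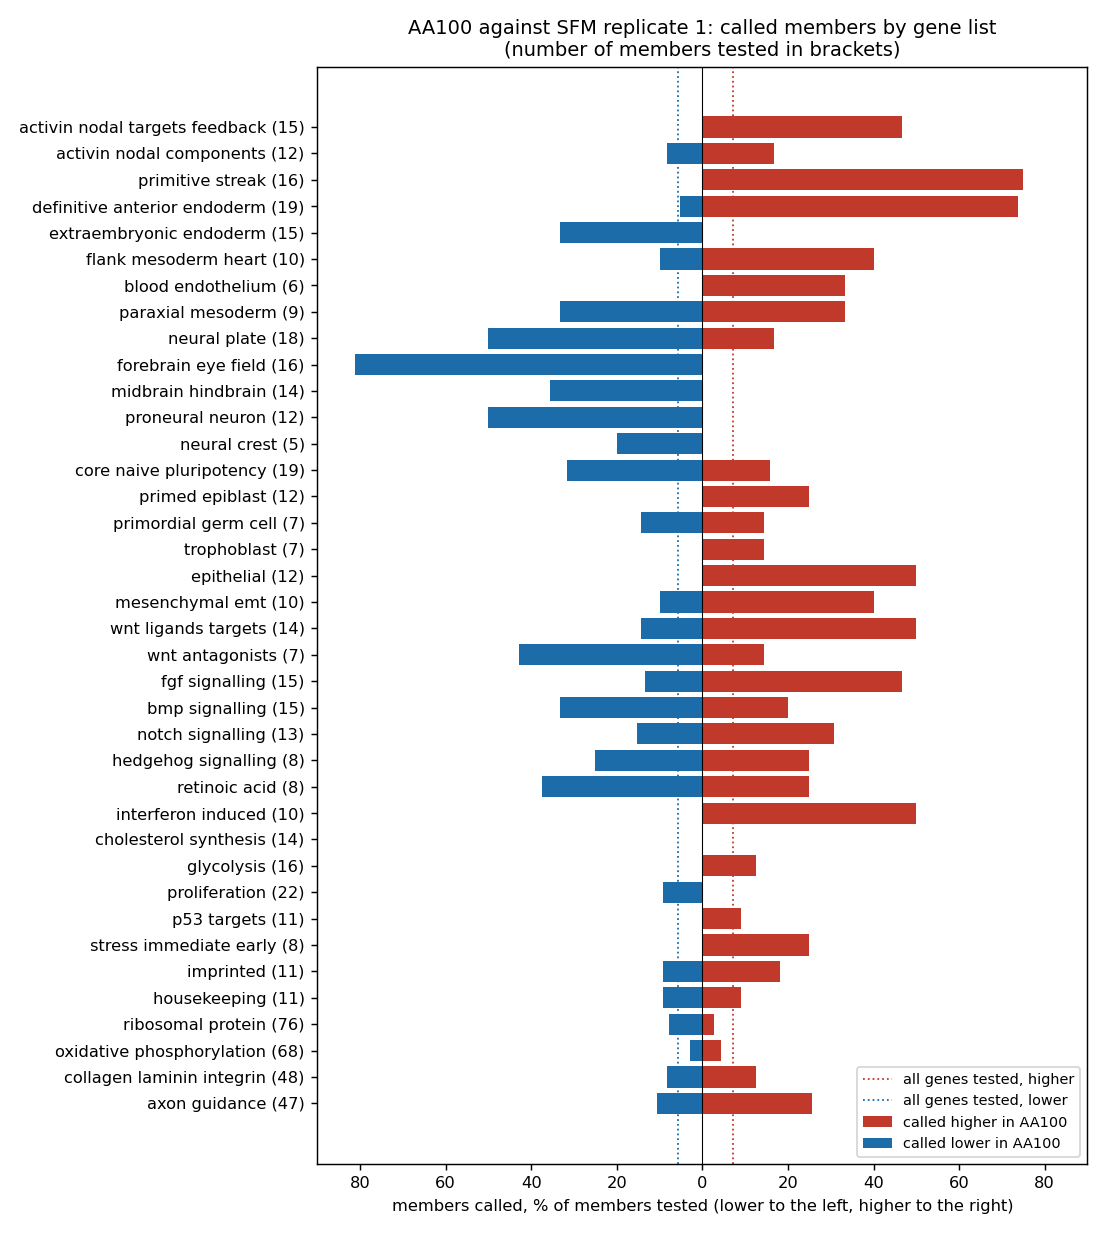
Members called lower (to the left) and higher (to the right), as a percent of members tested (x axis), for each gene list (y axis), in AA100 against SFM replicate 1, with the number tested in brackets. Streak (12 higher of 16) and endoderm (14 higher of 19) stand at one end and forebrain (13 lower of 16) at the other; over all genes tested 7.18% were higher and 5.74% lower.

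Pluripotency genes did not move as a group. Of 19 core and naive genes tested 3 rose and 6 fell, and 2 and 3 of these held. Over all genes tested 7.18% rose and 5.74% fell. Pou5f1, the core factor OCT4, was at 221 CPM in AA100, against 51.5 CPM and 25.8 CPM in the SFM libraries (log2 change 2.10 ± 0.29, edgeR adjusted p = 1.4e-09). Zfp42, a naive marker gene also called Rex1, was at 3.03 CPM in AA100, against 16.1 CPM and 5.78 CPM (log2 change −2.41 ± 0.39, edgeR adjusted p = 2.5e-07), and this fall did not hold. Of the 12 primed epiblast genes 3 rose, all held, and 0 fell. Fgf5, which marks the epiblast after implantation, was at 94.1 CPM in AA100, against 17.6 CPM and 15.4 CPM (log2 change 2.41 ± 0.30, edgeR adjusted p = 2.1e-11). Among 7 germ cell genes tested, Prdm1 rose as given above and Dppa3, an oocyte and germ cell gene, fell, with 34 counts in AA100, against 145 counts and 60 counts (edgeR adjusted p = 0.00022).

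Epithelial and mesenchymal genes both included rises. Of 12 epithelial genes 6 rose, 4 of these held, and 0 fell. Esrp1, a splicing regulator gene of epithelia, was at 319 CPM in AA100, against 73.3 CPM and 37.2 CPM (log2 change 2.12 ± 0.29, edgeR adjusted p = 9.8e-10), and Krt8, a simple epithelial keratin gene, had 1272 counts, against 376 counts and 131 counts (log2 change 1.86 ± 0.30, edgeR adjusted p = 2.2e-07). Cdh1, which encodes E-cadherin, was at 345 CPM in AA100, against 88.8 CPM in SFM replicate 1 and 421 CPM in SFM replicate 2, so that its rise passed but lay the opposite way against replicate 2. Of 10 mesenchymal genes tested 4 rose, 2 of these held, and 1 fell. Snai1, the repressor gene of E-cadherin in gastrulation, had 87 counts in AA100, against 21 counts and 7 counts (edgeR adjusted p = 0.00076), Fn1, the fibronectin gene, was at 426 CPM, against 96.7 CPM and 210 CPM (edgeR adjusted p = 5.8e-10), and Zeb2 fell, at 12.4 CPM, against 32.1 CPM and 111 CPM (edgeR adjusted p = 0.00055).

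Other signalling pathways changed in parts. Of 14 Wnt ligands and targets tested 7 rose, 6 of these held, and 2 fell and held; the 2 that fell were Wnt1 and Wnt8b. Rspo3, which encodes a Wnt agonist, was at 91.0 CPM in AA100, against 5.39 CPM in SFM replicate 1 and 55.9 CPM in SFM replicate 2, so its 16.9-fold excess shrank to 1.63-fold (1.48 to 1.79) with the other control. Of 7 Wnt antagonist genes tested 3 fell and held and 1 rose without holding (Shisa3, with 35 counts in AA100, against 0 counts and 16 counts), and the list summed to 349 CPM in AA100, against 1722 CPM and 3825 CPM. In both SFM libraries most of that sum was Shisa2, a gene of the Shisa family, whose founding member retains Wnt and FGF receptors in the endoplasmic reticulum of Xenopus cells. It was at 132 CPM in AA100, against 1387 CPM and 2951 CPM, 10.5-fold (10 to 11) below replicate 1 and 22.3-fold (21.3 to 23.3) below replicate 2 (edgeR adjusted p = 7.1e-15).

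In the FGF pathway 15 genes were tested, 7 rose and all 7 held, and 2 fell, of which 1 held. The feedback genes of the pathway were among those that rose. Spry4 was at 110 CPM in AA100, against 13.2 CPM and 19.8 CPM (log2 change 3.06 ± 0.32, edgeR adjusted p = 2.0e-15), and Dusp6, which encodes an ERK phosphatase, was at 287 CPM, against 42.5 CPM and 42.8 CPM (log2 change 2.75 ± 0.30, edgeR adjusted p = 1.9e-14). The receptor gene Fgfr2 had 4 counts in AA100, against 125 counts and 288 counts, 28.9-fold (11 to 108) below replicate 1 (edgeR adjusted p = 1.4e-10). Fgf10, a ligand of that receptor, moved the other way, with 287 counts in AA100, against 20 counts and 14 counts (log2 change 3.94 ± 0.45, edgeR adjusted p = 2.8e-13). Ligand and receptor thus had opposite changes, each on the same side of both SFM libraries.

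The lists of this paragraph are small, and over all genes tested 7.18% rose and 5.74% fell. Of 15 BMP pathway genes tested 3 rose and held, and 5 fell, of which 2 held. Bmp2 had 74 counts in AA100, against 1 count and 3 counts (edgeR adjusted p = 9.6e-09). With so few control counts its ratio to replicate 1 had a counting interval of 13.9 to 3197. In the Notch list 13 genes were tested, 4 rose, 2 fell, and 2 and 1 of these held; Dll3, a Notch ligand gene of presomitic mesoderm, was at 172 CPM in AA100, against 26.2 CPM and 6.17 CPM (log2 change 2.71 ± 0.30, edgeR adjusted p = 2.4e-13). In the Hedgehog list of 8 tested genes Shh rose, with 68 counts in AA100, against 15 counts and 5 counts (edgeR adjusted p = 0.0032), and Gli3, a transcription factor gene of the pathway, fell, at 46.5 CPM, against 166 CPM and 370 CPM (edgeR adjusted p = 1.0e-07). Of 8 retinoic acid genes tested 2 rose and 3 fell, and 1 of the 5 held. Crabp2, which encodes a retinoic acid carrier, fell to 11.3 CPM in AA100, against 166 CPM in SFM replicate 1, but SFM replicate 2 was at 10.6 CPM.

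Interferon-induced genes rose in a small group. Of 10 tested 5 rose, 4 of these held, and 0 fell, where 7.18% of all genes tested rose and 5.74% fell. Isg15, a ubiquitin-like gene, had 198 counts in AA100, against 8 counts and 9 counts (log2 change 4.71 ± 0.53, edgeR adjusted p = 9.9e-14), and Oasl2 had 167 counts, against 16 counts and 18 counts (log2 change 3.48 ± 0.48, edgeR adjusted p = 1.1e-09). Isg15 read 2.31 CPM in AA3 and 6.83 CPM and 6.78 CPM in AA15, between the SFM libraries and AA100, and 0.188 CPM in SB. In standard RNA-seq it was at 0.389 CPM at 100 ng/mL, against 0.370 and 0.861 CPM at 3 ng/mL. Its log2 step between these doses was −0.33 there, 0.35 in DP-seq from 50 pg and −0.41 in SMART-seq. Oasl2 had steps of 0.87, 0.12 and 1.09, at only 0.584 CPM in standard RNA-seq at 100 ng/mL. The regulators Irf7 and Ifih1 had too few counts for a test and were among 3 members at 0 counts in AA100, against 2 members in SFM replicate 1.

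Gene groups of general cell upkeep are given beside the share called over all genes tested, 7.18% higher and 5.74% lower. Of 14 cholesterol synthesis genes 0 passed by edgeR (3 at an unadjusted p under 0.05, and 0 by DESeq2), and of 22 proliferation genes tested 0 rose and 2 fell. Of 16 glycolysis genes 2 rose (12.5%) and 0 fell, and of 11 p53 target genes 1 rose. Among 76 ribosomal protein genes tested 2 rose and 6 fell, of which 1 and 2 held. The SFM libraries disagreed in some of them: Rps19 was at 3932 CPM in AA100, against 9076 CPM in SFM replicate 1 and 6.55 CPM in SFM replicate 2. Of 68 oxidative phosphorylation genes tested 3 rose (4.41%) and 2 fell (2.94%). Of 11 housekeeping genes tested 1 rose and 1 fell (9.09% each). Lists this small give shares on either side of the background with 1 or 2 genes, so nothing is read from the shares of glycolysis and housekeeping genes. The same holds for the counts of calls in the trophoblast, neural crest, germ cell and Hedgehog lists above. The Hox genes had few counts, with 3 of 39 passing the count filter and 0 called by edgeR (2 at an unadjusted p under 0.05, and 0 by DESeq2).

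Adhesion and guidance genes had calls in both directions. In the collagen, laminin and integrin list 48 genes were tested, 6 rose and 4 fell, of which 2 (4.17%) and 3 (6.25%) held, against 4.41% and 3.1% over all genes tested, so these counts are no result about that list. In the axon guidance list 47 were tested, 12 rose (25.5%) and 5 fell (10.6%), against 7.18% and 5.74% over all genes tested. Of these calls 8 and 5 held. Plxnc1, a semaphorin receptor gene, was at 2.59 CPM in AA100, against 30.3 CPM and 54.0 CPM (log2 change −3.55 ± 0.39, edgeR adjusted p = 3.7e-13). The ephrin receptor genes Epha1 and Epha2 rose, with 3146 and 305 counts in AA100, against 444 and 39 counts in SFM replicate 1 and 550 and 12 counts in SFM replicate 2, and both were named after their values were seen.

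Several of the 15 largest rises and falls that held belong to none of these groups. Foxq1, a forkhead gene, was at 59.6 CPM in AA100, against 1.41 CPM and 1.64 CPM in the SFM libraries, 42.4-fold (28.3 to 66.5) above replicate 1 (edgeR adjusted p = 6.9e-25). Dpf3, which encodes a chromatin remodelling subunit, had 125 counts in AA100, against 2 counts and 1 count (edgeR adjusted p = 9.8e-12), and Six2, a homeobox gene, was at 45.8 CPM, against 2.34 CPM and 2.51 CPM (edgeR adjusted p = 2.4e-19). Nt5e, which encodes the cell surface nucleotidase CD73, was at 16.4 CPM in AA100, against 0.878 CPM and 0.964 CPM (edgeR adjusted p = 1.2e-14). For these 4 genes the SFM libraries lay close together and far below AA100. The log2 step to AA100 from AA3 in standard RNA-seq, DP-seq from 50 pg and SMART-seq was above 0 each time for Foxq1 only. It was −1.15, −0.84 and −1.71 for Nt5e, 0.38, −0.53 and 0.65 for Dpf3, and 0.28, −0.63 and 1.25 for Six2.

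On the falling side, Edn1, the endothelin gene, had 2 counts in AA100, against 358 counts and 169 counts, 166-fold (45.6 to 1375) below replicate 1 (edgeR adjusted p = 1.7e-22). Edaradd, which encodes an adaptor of the ectodysplasin receptor, had 2 counts in AA100, against 229 counts and 271 counts (edgeR adjusted p = 4.5e-17). Lmx1a, a LIM homeobox gene of the roof plate, had 4 counts in AA100, against 206 counts and 111 counts (edgeR adjusted p = 6.5e-15). Six3os1 overlaps Six3 on the opposite strand, and without knowledge of strand in the counting its fall to 1.26 CPM in AA100, against 39.5 CPM and 66.3 CPM, cannot be told apart from that of Six3, which was at 1.07 CPM, against 25.5 CPM and 13.9 CPM.

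Set beside the other libraries of the dose set, the calls that held had medians that moved further from SFM replicate 1 with each higher activin dose. The genes were chosen for their AA100 difference from SFM replicate 1, which favours AA100 being the furthest, so nothing is read from that order. These comparisons all use SFM replicate 1, so they share its counting error and are given side by side only. The 532 genes that rose and held had a median log2 change of −0.42 with SB, then 0.94, 1.37 and 1.78 with activin at 3, 15 and 100 ng/mL, and 429 of them were further from SFM replicate 1 in AA100 than in AA15. The 374 genes that fell and held had medians of 0.03 with SB, then −0.86, −1.45 and −1.89 at the same activin doses, and 300 of them were further out in AA100 than in AA15. Of the rising genes 371 were lower in SB than in SFM replicate 1, and of the falling genes 189 were higher in SB. Cer1 illustrates the rising set, at 0.251 CPM with SB, 30.6 and 47.3 CPM without agent, and 78.7 CPM (3 ng/mL), 222 and 183 CPM (15 ng/mL) and 719 CPM (100 ng/mL) with activin. Pax6 illustrates the falling set, at 410 CPM with SB, 166 and 465 CPM without agent, and 14.4 CPM (3 ng/mL), 4.00 and 4.84 CPM (15 ng/mL) and 1.58 CPM (100 ng/mL) with activin. Pou5f1 differed from both in that AA3, at 187 CPM, already stood near AA100, at 221 CPM.

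Activin at 100 ng/mL was also sequenced by standard RNA-seq, by DP-seq from 50 pg and by SMART-seq from 50 pg, here called the other sets of libraries. DP-seq from 50 pg is the same method as that of the dose set. Only the step to 100 ng/mL from 3 ng/mL can be set beside those libraries, as these sets include no SFM library. The log2 ratio of AA100 over AA3 for the 15 genes with the largest rise had a median of 2.65 in the dose set, 0.28 in standard RNA-seq, −0.27 in DP-seq from 50 pg and 0.44 in SMART-seq. It was above 0 in 15 of 15 genes in the dose set, and in 8, 7 and 9 of 15 in the other sets. For the 15 genes with the largest fall the medians were −2.20, −0.54, −1.33 and −0.09, and the ratio was below 0 in 15, 12, 11 and 10 of 15. The steps in the other libraries were therefore smaller or of the other sign for many of these genes; no test was made, and the genes were chosen from the dose set.

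Cer1 kept its direction, with a log2 step of 3.18 in the dose set, 1.21 in standard RNA-seq, 2.69 in DP-seq from 50 pg and 2.70 in SMART-seq. In the same order, Sox17 had steps of 2.23, 0.30, 1.22 and 0.0002. Hand1 had 2.38, 1.08, 2.09 and −0.53, and Pax6 had −2.84, −0.64, −2.15 and 0. Lefty1 had steps of 2.74, 3.41 and 3.87 in the other 3 sets, and Foxq1 had 3.29, 2.21 and 2.34. Kdr had a step of 3.03 in the dose set but −1.54 in standard RNA-seq, −2.02 in DP-seq from 50 pg and −1.68 in SMART-seq, and Mesp1 had 2.72 in the dose set but −2.20, −3.95 and −2.84. Foxc1 had 1.82 in the dose set but −2.86, −4.11 and −3.41, Foxc2 had 2.77 but −2.56, −3.38 and −1.26, and Fn1 had 2.24 but −1.61, −2.05 and −1.99. In standard RNA-seq Kdr was at 5.45 CPM in the AA100 library, against 16.5 CPM and 17.0 CPM in the AA3 libraries. Of the 71 named genes that rose and had a step above 0 in the dose set, 21 (29.6%) stepped below 0 in all 3 other sets. Among these 21 were Foxa1, Dll3, Shh, Krt8, Snai1 and Fst. Another 25 had a step above 0 in all 3 other sets. Of all 532 genes that rose and held, 493 had a step above 0 in the dose set. Of these, 90 (18.3%) had one below 0 in all 3 other sets. With no SFM library in the other sets, every rise over SFM rests on the dose set alone. For Kdr, Mesp1, Foxc1 and Fn1 the step to 100 ng/mL from 3 ng/mL also had the other sign in those sets.

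**Figure D5:**
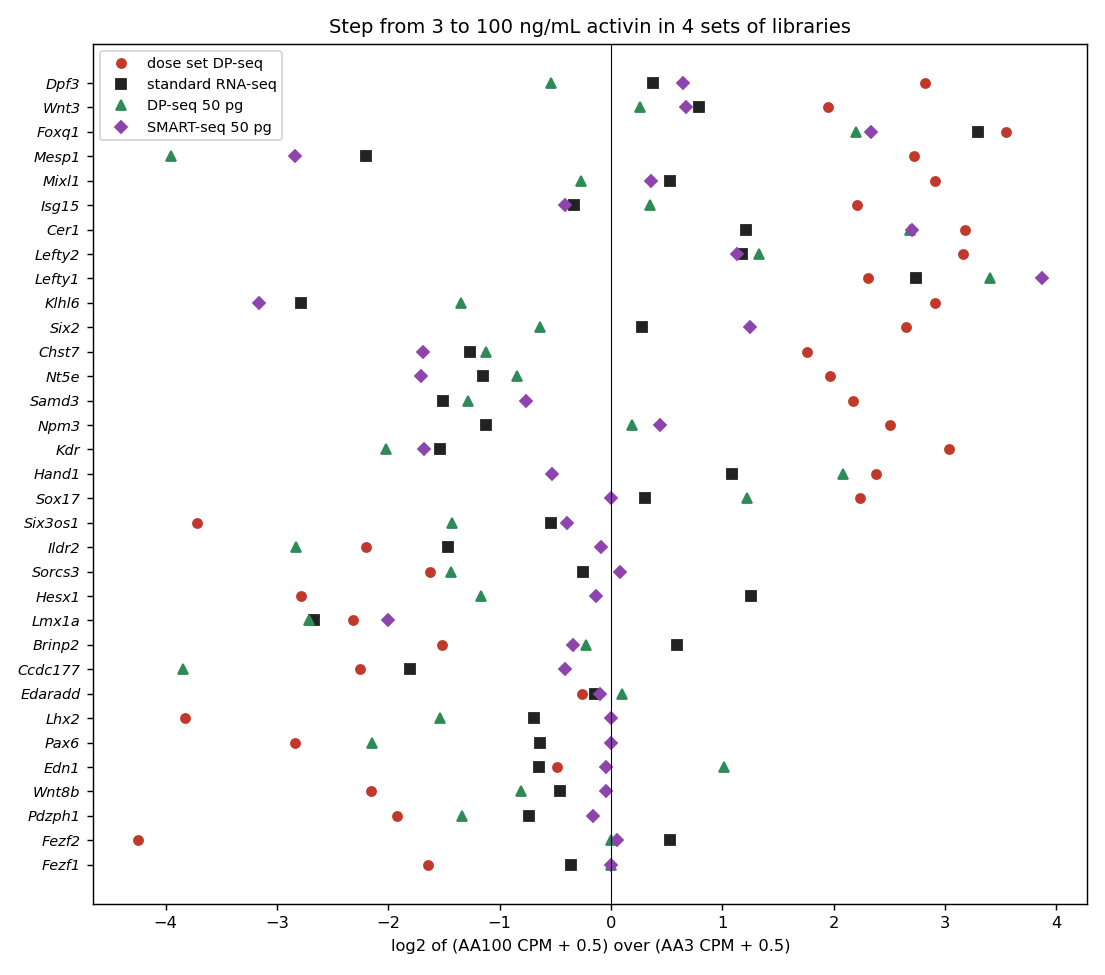
Log2 ratio of AA100 over AA3 (x axis, on CPM + 0.5) for each of the 15 genes with the largest rise, the 15 with the largest fall and the markers Kdr, Hand1 and Sox17 (y axis), in the dose set, standard RNA-seq, DP-seq from 50 pg and SMART-seq from 50 pg. All 15 rising genes lie above 0 in the dose set, but Mesp1, Klhl6, Chst7, Nt5e and Samd3, and the marker Kdr, lie below 0 in each of the other 3 sets.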

How the data were processed

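Gene expression was measured by DP-seq in the 7 libraries of the dose set; 10 libraries of the method set were used beside them, and the other libraries were not analysed here. Per the file headers, the authors deposited counts of unique reads per RefSeq transcript. In the method set 14 deposited values were not whole, so those columns are estimated counts and were rounded. The aligner, the build, the strand setting and how reads were counted: not given in the sources used here. Counts of 26566 transcripts were summed to 21844 genes (25853 transcripts named through RefSeq, 154 through GENCODE, 559 unnamed).

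In edgeR 4.0.16 (R 4.3.3), low genes were dropped by filterByExpr with groups (at least 10 counts, and 15 in total), TMM factors were computed, and a robust quasi-likelihood fit was made over 6 libraries: SFM replicate 1, SB, AA3, both AA15 and AA100. Only the AA15 technical pair gives residual degrees of freedom, and a lone library is assumed to vary like it. Benjamini-Hochberg adjustment used a threshold of 0.05. Each of the 7 libraries had 13053122 to 15707808 counts. Intervals are exact 95% intervals for counts of 2 libraries; they and the floor of 3 counts cover counting error alone, because PCR copies of a molecule are not independent. DESeq2 1.42.0 was an alternative.

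Named genes are the 5 markers, the activin targets tested, up to 4 members of each other list with the largest change, and the 15 largest rises and falls that held, with at least 100 counts in the higher library, without unnamed models, pseudogenes and ribosomal protein genes. The text prints a selection, and some members are not reported here. The members and the 39 lists were chosen with earlier results of these data known. Tested on simulated data for AA100 against SFM over 11713 genes, the fit recovered 19.4%, 76.1% and 89.4% of genes changed 2-, 4- and 8-fold, with 3.1% of calls false. The simulated counts had the technical spread that the fit assumes and no spread between cultures. The 3.1% is therefore no error rate for the calls in the real data. Python 3.11.15 with pandas 2.3.3 and numpy 2.4.6 made the tables, and matplotlib 3.10.9 the figures.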

Additional observations from a re-analysis of the deposited data

Results flagged for a closer look

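For 9 of the 180 named genes the step to 100 ng/mL from 3 ng/mL had one sign in the dose set. It had the other sign in all 3 other sets of libraries, by at least 1 log2 unit each. The log2 steps of the mesoderm genes in the dose set were 3.03 for Kdr, 2.72 for Mesp1, 2.77 for Foxc2 and 1.82 for Foxc1. In standard RNA-seq they were −1.54, −2.20, −2.56 and −2.86, in DP-seq from 50 pg −2.02, −3.95, −3.38 and −4.11, and in SMART-seq −1.68, −2.84, −1.26 and −3.41, in the same gene order. Fn1, Klhl6 and Chst7, which also rose over SFM, had steps of 2.24, 2.91 and 1.76 in the dose set, against −1.61, −2.78 and −1.26 in standard RNA-seq, −2.05, −1.34 and −1.12 in DP-seq from 50 pg, and −1.99, −3.16 and −1.69 in SMART-seq. Cdx2 and Hoxb1, which were not called over SFM, had steps of 1.07 and 1.55 in the dose set. In the same 3 other sets they had −1.76 and −2.79, −2.87 and −3.45, and −1.84 and −2.57. DP-seq from 50 pg is the same method as that of the dose set. The difference between the dose set and the other sets was not tested. The labels do not say whether the RNA of the dose set and of the method set came from the same culture.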

How the results depend on the processing

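Of the alternatives, DESeq2 size factors (911 higher, 699 lower), no low-count filter (824 and 671) and a fit of 4 libraries (894 and 701) left the counts of calls within 1.5 times of 867 and 693. Library totals alone gave 674 higher and 841 lower. DESeq2's test gave 324 and 198, and a test against a log2 change of 1 gave 236 and 184. With both SFM libraries as controls edgeR called 0 higher and 0 lower (541 at an unadjusted p under 0.05, lowest adjusted p 0.818); DESeq2 on those 7 libraries, added after seeing the data, called 35 and 71. With SFM replicate 2 as the control 3930 and 3226 were called. Of the calls that held, 906 in all, 558 differed at least 4-fold from SFM replicate 2, 1219 calls had the same sign at any size, and library totals gave 915.

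Among named genes, Foxc2 reversed with both SFM libraries (log2 change −0.30, or −0.38 with DESeq2) and with SFM replicate 2 alone (−1.24). With SFM replicate 2 alone the sign also turned for Bambi (−0.97), Tgif2 (−1.51), Ski (−1.46), Cdh1 (−0.29), Dusp1 (−0.037) and Itga8 (−0.026), and for Tgif1 (2.37), Map2 (6.51), Fgf4 (1.85), Crabp2 (0.089), Insig1 (1.74), Aurkb (0.37), Ccnd3 (6.25), Ddit3 (3.26), Sgce (6.51), Tfrc (0.18), Rps27l (0.43), Rpl32l (7.37), Rps19 (9.22) and Uqcrq (4.58). Without either AA15 replicate no residual degrees of freedom remain, so there was no test; 5 of 180 named genes moved beyond their standard error in each case. The causes were not tested.

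No paired analysis was possible because AA100 has 1 library and its label carries no replicate number. With 1 AA100 library and a technical spread, the variation between cultures is not measured, and in the simulation 19.4% of genes changed 2-fold were recovered.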
